A study of Mus musculus with 41 samples.

Results

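Livers of mice carrying the Mup transgene were compared with livers of B6 mice in the groups marked NC. The members are the 9 libraries whose table columns combine the Tri_NC tag with Mup, IgAkMup or CD8kMup, and the 3 libraries whose columns combine it with B6, so 12 of the 41 libraries of the series were used. They form 4 groups of n = 3, named B6, MupHe, IgAkMup and CD8kMup as in the labels. The whole series follows male C57BL/6 mice from healthy liver through steatohepatitis to liver tumours, and the NC livers are its healthy ones. The labels expand neither NC nor the k in IgAkMup and CD8kMup, and give no age and no count of animals.

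In this model the promoter of a major urinary protein gene, which is active in hepatocytes, drives the protease urokinase. Urokinase made in hepatocytes burdens their secretory pathway, the endoplasmic reticulum (ER), and a high-fat diet on top of it leads to steatohepatitis and liver cancer. Cells answer ER stress with a programme of chaperones and degradation factors under the sensors ATF6, IRE1 and PERK, and the last of these also starts the integrated stress response through ATF4. The labels describe neither the transgene nor its copy number, and all 3 Mup groups carry the Mup name, so the comparison asks what is shared by Mup livers that are labelled healthy.

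Levels are regularized log2 values (rlog2), so a difference of 1 is a 2-fold change, and low genes are pulled toward their mean. Errors of differences are standard errors of a limma fit of the 4 groups, and a gene is said to rise or fall where its adjusted p is below 0.05. The main contrast sets the mean of the 3 Mup groups against B6, and each genotype was also set against B6. All 4 contrasts share the same 3 B6 libraries and are therefore not independent of each other. The labels do not say that replicates were separate animals, so p-values measure the spread between these samples only.

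Several libraries stood apart before any comparison. Skeletal muscle genes were high in B6 NC 1, where Mb, muscle myoglobin, read 15.00 and Ckm, muscle creatine kinase, 12.58. For muscle genes MupHe NC 1 (Ckm 8.34) and CD8kMup NC 3 (Ckm 4.27) followed at a distance, and Ckm stayed between 1.84 and 2.54 in the other 9 libraries. The adipocyte list (3 genes above the level filter) was also highest in B6 NC 1, at a mean of 9.45 against 7.36 to 8.64 in the other 11 libraries, and its Cfd, adipsin, read 7.83 there and 3.70 to 6.71 in the others. B6 NC 3 differed in clock genes, of which those given here were chosen after their values were seen. Its Dbp, a transcription factor with a daily rhythm, was 5.45 against 8.43 to 9.99 in the other 11 libraries, and its Arntl, the core clock activator, was 7.99 against 5.04 to 6.90. The first principal component, with 24.5% of the variance, placed B6 NC 1 at -32.1, the other B6 libraries at -11.0 and -11.7, and the Mup libraries between -0.83 and 14.6. The hepatocyte list (14 genes, among them Alb and Apob) averaged 15.1 to 15.3 in all 12 libraries, and none of its members passed in the pooled contrast.

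**Figure D1:**
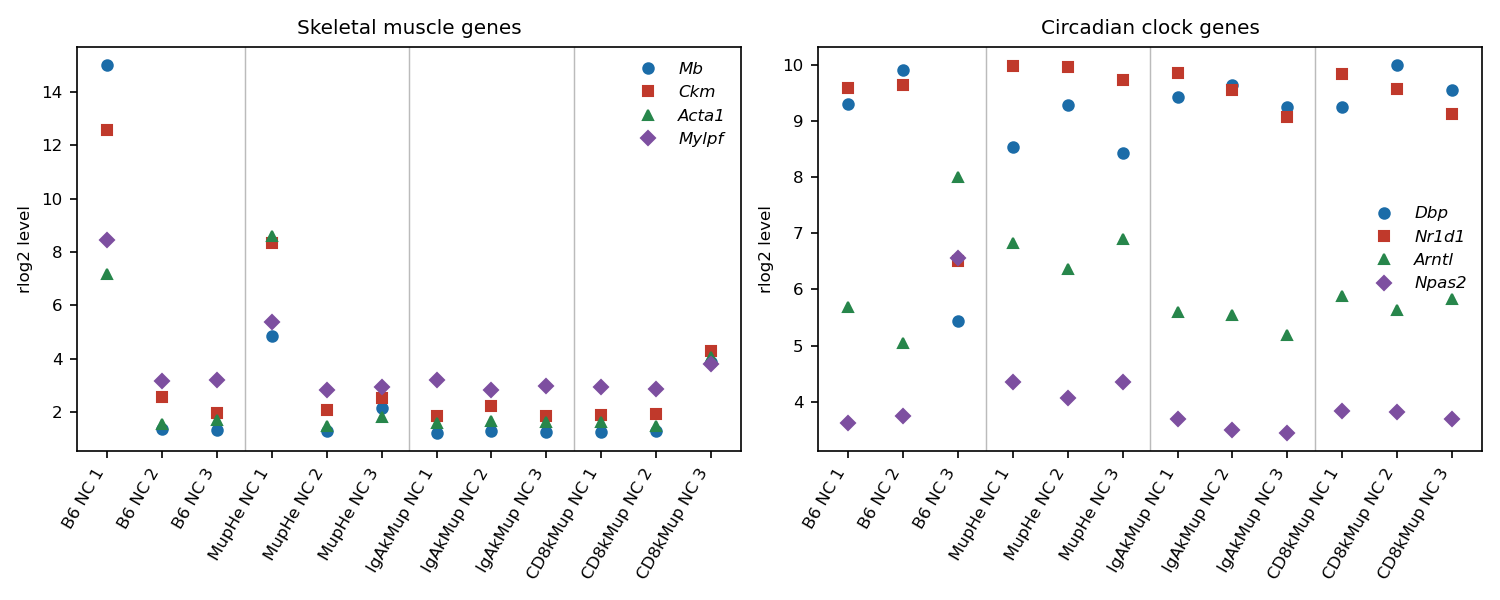
Levels (rlog2, vertical axes) of 4 skeletal muscle genes and 4 circadian clock genes in each of the 12 libraries (horizontal axes; grey lines part the groups). B6 NC 1 has Mb at 15.00 and B6 NC 3 has Dbp at 5.45, so 2 of the 3 B6 libraries stand apart in one of the sets.

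Of 12279 genes tested, 331 rose (2.7%) and 131 fell (1.07%) in the pooled contrast. For 255 of the 331 and 106 of the 131, the 9 Mup libraries did not overlap the 3 B6 libraries, as was also so for 710 of all genes tested. Most changes were modest, with a median size of 0.51 among the genes that passed. By 1 or more, 51 rose and 8 fell. The count rests partly on the B6 libraries that stand apart: 204 genes passed without B6 NC 1, of which 169 were among the 462, and 87 passed without the 3 libraries with high muscle genes, of which 81 were. With both B6 NC 1 and B6 NC 3 left out, which leaves 1 B6 library whose spread is taken from the other groups, 123 passed and 79 were shared. In a fit of all 35 mapped libraries, tumours included, 29 passed and 26 were shared, and no gene list described here kept more than 1 member.

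The largest rise was that of Gldn (chr9:54286486-54341786), which encodes gliomedin, an adhesion protein known from peripheral nerve. It read 3.72, 3.76 and 3.69 in B6 and from 5.27 to 7.77 (median 6.76) in the Mup libraries, a difference of 2.91 ± 0.22 (adjusted p = 1.82e-05). Every Mup library was far above every B6 library. Tmeff2 (chr1:50900647-51187270), a membrane protein with EGF and follistatin domains, read 4.02, 3.90 and 3.82 in B6 and 5.09 to 6.76 (median 6.25) in Mup, a difference of 2.27 ± 0.25 (adjusted p = 0.000308). The calcium-binding protein gene Cib3 (chr8:72204335-72212837) read 4.01, 4.80 and 4.02 in B6 and 6.00 to 7.78 (median 6.93) in Mup, a difference of 2.56 ± 0.33 (adjusted p = 0.000967). For Tmeff2 and Cib3 as well, the groups did not overlap. In Tmeff2 and Cib3 the 3 Mup groups rose by like amounts, Cib3 by 2.52, 2.54 and 2.64 in MupHe, IgAkMup and CD8kMup.

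Cyp2a4 (chr7:26307169-26315088), a steroid hydroxylase typical of female liver, read 5.26, 5.57 and 5.67 in B6 and 5.91 to 10.90 (median 8.47) in Mup, a difference of 2.72 ± 0.47 (adjusted p = 0.00769). It passed without B6 NC 1 (adjusted p = 0.0445) but not without the 3 libraries with high muscle genes. Its rise was uneven across genotypes: it passed in IgAkMup (3.99) and CD8kMup (2.99) and was 1.17 in MupHe without passing, while the difference among the genotypes did not pass either (adjusted p = 0.148). Smpd3, neutral sphingomyelinase, rose by 1.68 ± 0.22, and Nucb2, nucleobindin, by 1.53 ± 0.17, both with no overlap. The immediate early gene Egr1 rose by 1.46 ± 0.38 but lost its call in 9 of 12 fits that leave out a library (adjusted p = 0.171 without B6 NC 1).

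**Figure D2:**
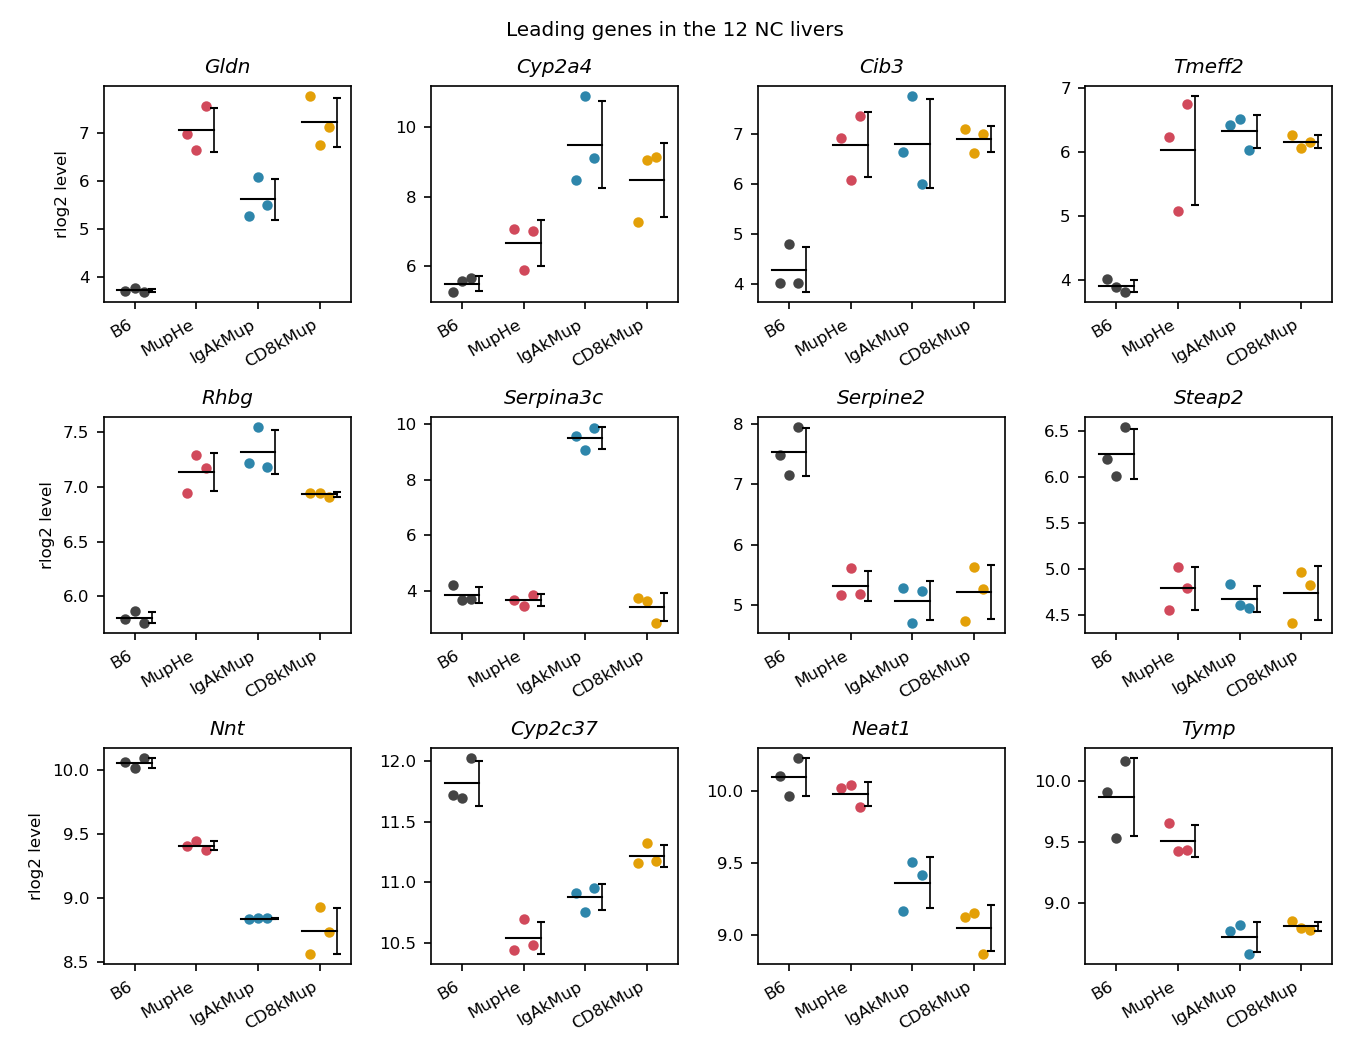
Levels (rlog2, vertical axes) of 12 named genes in the 4 groups (horizontal axes). Points are single libraries, bars are means and whiskers are SD (n = 3). Gldn, Cib3, Tmeff2 and Rhbg are higher in all 9 Mup libraries than in B6, Serpina3c is high in the 3 IgAkMup libraries only, and Serpine2, Steap2 and Nnt are lower in all 9.

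Serpine2 (chr1:79794197-79861180) fell most. It encodes protease nexin 1, an inhibitor of thrombin and of urokinase. Its levels were 7.49, 7.16 and 7.95 in B6 and 4.70 to 5.64 (median 5.23) in Mup, a difference of -2.33 ± 0.20 (adjusted p = 6.16e-05). No Mup library came within 1 unit of B6, and the falls were of like size in MupHe (-2.21), IgAkMup (-2.46) and CD8kMup (-2.31). Steap2 (chr5:5664829-5694578), a metalloreductase, read 6.20, 6.01 and 6.54 in B6 and 4.41 to 5.03 (median 4.79) in Mup, a difference of -1.51 ± 0.15 (adjusted p = 0.000111), again with no overlap. Pcp4l1, a calmodulin-regulating peptide, fell by 1.41 ± 0.19 on the log2 scale, with 6.15, 6.45 and 6.19 in B6 and 4.46 to 5.59 in Mup. These 3 genes also passed without B6 NC 1, and so did Cyp2c37, a P450 of the arachidonic acid epoxygenase family, which fell by 0.94 ± 0.08 from 11.73, 11.70 and 12.03.

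Further falls were less secure. G0s2, an inhibitor of the triglyceride lipase ATGL, had a difference of -1.02 ± 0.25, with 9.89, 9.19 and 9.18 in B6 and 7.91 to 9.12 in Mup, and lost its call in 10 of 12 fits that leave out a library (adjusted p = 0.188 without B6 NC 1). Its highest value was in B6 NC 1, the library with the highest adipocyte level, whose part in this result was not tested. Srgap3 had a difference of -1.37 ± 0.30, its B6 libraries spread from 4.24 to 6.27, and it did not pass without B6 NC 1 (adjusted p = 0.062). Col27a1, a fibrillar collagen, fell by 0.78 ± 0.13 and kept its call in all 12. Gm4956, the pseudogene Adh6-ps1 and Lgals6 also passed, with differences of -0.87, -0.87 and -0.74. Lgals6 has a near-identical copy, Lgals4, so reads of the pair could be split either way.

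Genes behind the group names were looked up next. Plau, which encodes urokinase, read 4.30, 4.27 and 4.57 in B6 and 4.36 to 5.27 (median 4.83) in Mup, so the groups overlap. The means were 4.80 ± 0.25 (SD, n = 9) and 4.38 ± 0.17 (SD, n = 3), a difference of 0.42 (exact two-sided permutation p = 0.0182, adjusted over 3 tests 0.0545; the smallest possible is 0.00455). Plau also missed the threshold in the fit over all genes (adjusted p = 0.142). The labels do not say whether the transgene's transcript would be counted under Plau. Cd8a, a chain of the CD8 coreceptor, read 3.34, 4.20 and 3.88 in the libraries labelled CD8kMup and 3.71, 3.11 and 3.35 in those labelled MupHe (exact two-sided permutation p = 0.3, adjusted 0.3, smallest possible 0.1). The other chain, Cd8b1, averaged 1.81 ± 0.08 (SD, n = 3) in CD8kMup and 2.03 ± 0.23 (SD, n = 3) in MupHe, near the floor of the table (exact two-sided permutation p = 0.2, adjusted 0.3, smallest possible 0.1). With these levels neither chain checks the label, and groups are called by their labels throughout. Igha, the heavy chain of IgA, was not analysed here. In the urokinase and plasminogen list, 2 of 18 members rose and none fell, with a median of 0.01. They were Anxa2 (0.77 ± 0.13) and S100a10 (0.59 ± 0.13), the 2 parts of the annexin A2 complex that binds plasminogen at the cell surface, and S100a10 missed the threshold without B6 NC 1 (adjusted p = 0.096).

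A few genes of the ER stress response rose, most of all Derl3, which helps to draw misfolded proteins out of the ER. Derl3 (chr10:75893413-75895941) read 4.94, 5.55 and 5.01 in B6 and 6.00 to 7.63 (median 6.93) in Mup, a difference of 1.74 ± 0.13 (adjusted p = 1.74e-05), with no overlap. Of 24 ER chaperone and folding genes tested, 4 rose and none fell, and the list's median difference was 0.17 against -0.004 over all genes. The other 20 did not pass, and the mean level of the list overlapped, at 10.3 to 10.4 in B6 and 10.3 to 10.8 in Mup. The other rises were those of the folding factor Creld2 (0.91 ± 0.16), the DnaJ cofactor Sdf2l1 (0.57 ± 0.12) and the ER chaperone Hsp90b1 (0.29 ± 0.07), each with overlap between B6 and Mup. For Sdf2l1 B6 read 7.60, 7.95 and 7.97, all inside the Mup range of 7.55 to 8.91. In IgAkMup, Sdf2l1 and Hsp90b1 stood only 0.04 and 0.03 above B6 (adjusted p = 0.921 and 0.910). Creld2 stood 0.47 above B6 in IgAkMup without passing (adjusted p = 0.225). Derl3 alone passed without B6 NC 1. The rise of Derl3 differed among the genotypes (F test, adjusted p = 0.0268): it was 2.35 ± 0.16 in CD8kMup, 1.77 ± 0.16 in MupHe and 1.09 ± 0.16 in IgAkMup. Over the list, 5 members rose in MupHe, 5 in CD8kMup and 1 in IgAkMup, with medians of 0.33, 0.19 and -0.03. Of all genes, 1.19% rose in MupHe, 1.18% in CD8kMup and 2.3% in IgAkMup. But Derl3 is the only member whose difference among genotypes passed, and Manf, a secreted stress factor, came next (adjusted p = 0.0507).

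In the integrated stress response list, 4 of 19 members rose and none fell, with a median of 0.20. Of these, Atf3 is also on the immediate early list, where it and Egr1 were the 2 of 16 that rose. Atf3 (chr1:191170296-191218039), a transcription factor induced by stress, read 4.66, 4.88 and 4.84 in B6 and 6.36 to 8.05 (median 7.02) in Mup, a difference of 2.18 ± 0.23 (adjusted p = 0.000244). Nupr1, a stress-induced chromatin protein, read 4.84, 4.29 and 4.56 in B6 and 5.61 to 6.98 in Mup, a difference of 1.52 ± 0.23 (adjusted p = 0.00314). For both, every Mup library was above every B6 library, and both passed without B6 NC 1. Ddit3, which encodes the factor CHOP, rose by 1.16 ± 0.25, and its target Trib3, a pseudokinase, by 1.19 ± 0.27. Neither overlapped, but neither passed without B6 NC 1 (adjusted p = 0.0585 and 0.0707). Asns, asparagine synthetase, stood 1.39 ± 0.37 higher and missed the threshold (adjusted p = 0.057). The mean level of the whole list was 6.23 to 6.30 in B6 and 6.67 to 6.99 in Mup, again with no overlap. Cytosolic heat shock genes went the other way: 3 of 17 fell and none rose, with a median of -0.21. They were Hsph1 (-0.40 ± 0.07), Stip1 (-0.36 ± 0.08) and Chordc1 (-0.29 ± 0.07), all cofactors of HSP70 or HSP90. The list's mean level was 8.85 to 8.99 in B6 and 8.61 to 8.80 in Mup, and of these genes Hsph1 passed without B6 NC 1 at an adjusted p of 0.0497, and Stip1 and Chordc1 did not (0.0805 and 0.184).

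**Figure D3:**
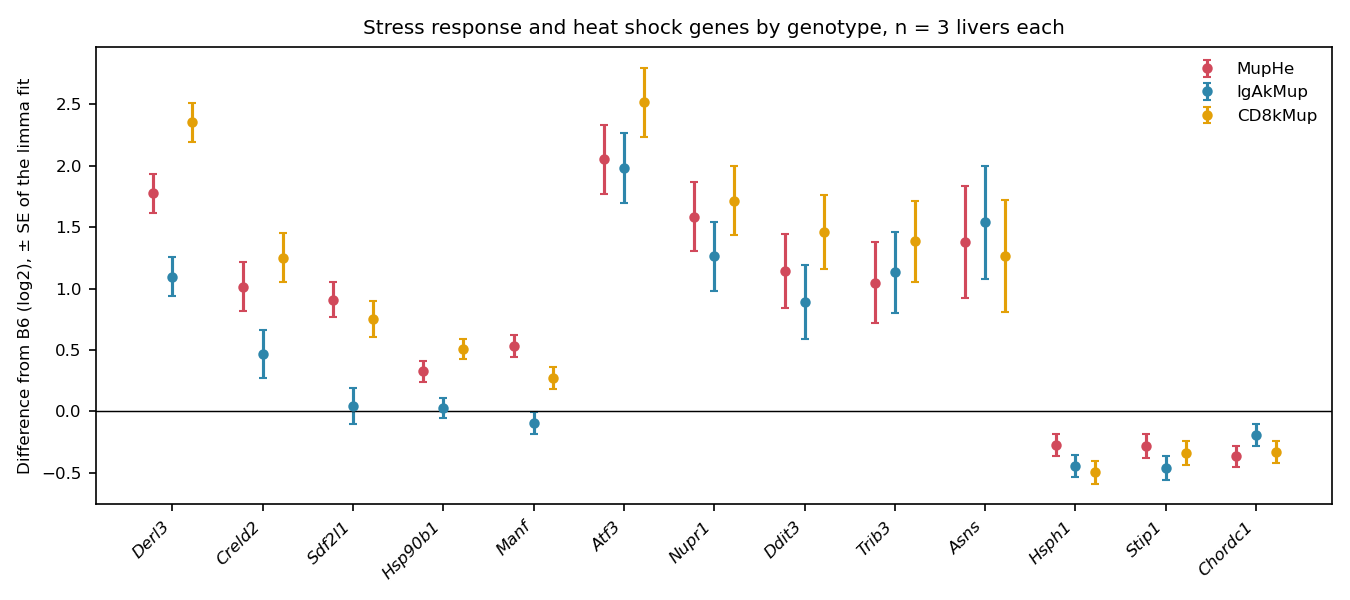
Difference from B6 (log2, vertical axis; points with ± SE of the limma fit, n = 3 libraries per group) of stress response and heat shock genes in the 3 Mup genotypes. Derl3 stands at 2.35 in CD8kMup, 1.77 in MupHe and 1.09 in IgAkMup, the Atf3 points lie at about 2 or above, and the 3 heat shock genes on the right lie below 0.

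Promoters of the risen stress genes were read from RefSeq (GRCm38.p6) to show the letters on which these pathways are known to act. The window is the 250 bases before a start of transcription, printed 5′ to 3′ on the gene's strand, and capitals mark each match on either strand. Where a gene has several listed starts, the window shown is that of the first start with a match. A gene counts as holding a match if any of its windows does. The ER stress response element (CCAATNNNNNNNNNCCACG, an NF-Y part and an ATF6 part) was searched in the ER genes, and the core of the C/EBP-ATF response element that ATF4 binds (TTGCATCA) in the integrated stress response genes. These lines show the members that rose and hold a match.
Derl3 (chr10, + strand): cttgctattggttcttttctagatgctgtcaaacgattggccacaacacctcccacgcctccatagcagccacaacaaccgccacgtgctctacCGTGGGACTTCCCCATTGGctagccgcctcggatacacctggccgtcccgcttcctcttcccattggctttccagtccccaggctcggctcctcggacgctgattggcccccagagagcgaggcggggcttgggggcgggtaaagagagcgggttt
Creld2 (chr15, + strand): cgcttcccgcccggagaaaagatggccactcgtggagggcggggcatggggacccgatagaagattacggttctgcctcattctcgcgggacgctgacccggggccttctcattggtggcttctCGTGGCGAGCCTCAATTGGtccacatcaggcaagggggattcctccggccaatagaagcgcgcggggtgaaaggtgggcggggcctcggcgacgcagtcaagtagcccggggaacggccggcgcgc
Hsp90b1 (chr10, - strand): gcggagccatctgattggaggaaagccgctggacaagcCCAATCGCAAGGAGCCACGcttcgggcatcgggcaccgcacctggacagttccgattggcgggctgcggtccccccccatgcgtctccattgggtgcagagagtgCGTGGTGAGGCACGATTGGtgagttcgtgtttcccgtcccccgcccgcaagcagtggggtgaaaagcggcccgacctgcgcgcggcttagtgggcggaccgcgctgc
Atf3 (chr1, - strand): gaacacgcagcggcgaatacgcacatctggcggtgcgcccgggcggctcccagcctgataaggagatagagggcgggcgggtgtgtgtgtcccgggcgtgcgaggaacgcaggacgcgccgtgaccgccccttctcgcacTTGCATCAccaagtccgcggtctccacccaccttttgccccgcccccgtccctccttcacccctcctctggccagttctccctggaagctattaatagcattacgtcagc
Nupr1 (chr7, - strand): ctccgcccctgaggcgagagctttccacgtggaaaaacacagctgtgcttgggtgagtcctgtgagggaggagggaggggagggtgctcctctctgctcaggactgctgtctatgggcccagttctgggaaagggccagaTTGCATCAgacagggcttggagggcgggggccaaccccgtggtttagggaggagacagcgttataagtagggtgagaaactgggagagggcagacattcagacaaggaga

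The windows lie at chr10:75893148-75893397 for Derl3, chr15:88819396-88819645 for Creld2, chr10:86705445-86705694 for Hsp90b1, chr1:191183334-191183583 for Atf3 and chr7:126625471-126625720 for Nupr1. The ER element is in 3 of the 4 ER genes that rose, with 2 matches in Hsp90b1, and in 9 of the 21 ER genes tested that have an entry, against 0.13% of the 27025 gene symbols in the RefSeq promoter table. The ATF4 core is in 2 of the 4 integrated stress response genes that rose and in 6 of 19 tested, against 0.918% of all symbols. Its match begins 110 bases before the start used in both Atf3 and Nupr1, whose windows lie inside the genes. The exact letters are not in the windows of Sdf2l1, Ddit3 or Trib3. The ER element is also in the windows of Calr, Canx, Dnajc3, Hspa5, Pdia6 and Syvn1, which did not pass in the pooled contrast. Among the integrated stress response genes, Chac1, Fgf21, Slc7a11 and Vldlr hold the ATF4 core and did not pass either. Both lists were drawn up by pathway, so their excess over all symbols does not bear on the rises. A match describes the sequence and does not show binding in these livers.

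Macrophage genes formed the list with the most calls. Of 16 recruited macrophage and monocyte markers tested, 9 rose and none fell, with a median of 0.58. The mean level of the list was 5.03 to 5.29 in B6 and 5.61 to 6.13 in Mup, with no overlap. Gpnmb (chr6:49036546-49070929), a glycoprotein of lipid-laden macrophages, read 4.10, 4.32 and 4.32 in B6 and 5.54 to 7.89 (median 6.40) in Mup, a difference of 2.13 ± 0.21 (adjusted p = 0.000143). Mmp12, macrophage elastase, rose by 1.37 ± 0.17, from 3.90, 4.27 and 4.09 to between 5.14 and 6.31. Spp1, osteopontin, which bile duct cells also make, rose by 1.03 ± 0.10, from 8.64, 8.99 and 8.77 to between 9.51 and 10.10. Lyz2, a lysozyme, rose by 0.66, and the other members that rose, named here after their values were seen, were Cd68 (0.59), Itgax (0.71), Cx3cr1 (0.64), Itgam (0.51) and Lgals3 (0.57). Of the list, 7 members passed without B6 NC 1, 5 without the 3 muscle-high libraries, 2 with both B6 NC 1 and B6 NC 3 left out, and 0 in the fit of all mapped libraries. The monocyte markers Ccr2 and Ly6c2, picked in the same way, did not pass, at 0.35 ± 0.18 and 0.13 ± 0.11. In bulk tissue, more cells of a type and more RNA per cell cannot be told apart.

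Resident Kupffer cell genes moved less in the pooled contrast, where 1 of 16 rose, the complement gene C1qc (0.44 ± 0.09), with a list median of 0.30. Against B6, 7 of the 16 rose in IgAkMup (median 0.54), none in MupHe (0.27) and none in CD8kMup (0.13). Over all genes 2.3% rose in IgAkMup, 1.19% in MupHe and 1.18% in CD8kMup. None of the 16 passed the F test among genotypes, so this contrast between them is not established. Of 23 stellate cell and fibroblast genes, 4 rose and none fell, with a median of 0.23. They were the matrix genes Col6a3 (0.79 ± 0.10), Lum (0.85 ± 0.16) and Col1a1 (0.61 ± 0.15) and the receptor gene Pdgfrb (0.44 ± 0.10). In the 12 fits that leave out a library, Col1a1 lost its call in 8 and Pdgfrb in 7, while Col6a3 and Lum kept theirs in all. Col6a3 read 6.22, 6.04 and 5.97 in B6 and 6.53 to 7.10 in Mup, and Lum 6.71, 6.33 and 5.99 against 6.91 to 7.80, so neither overlapped. Col1a1 overlapped, with 5.90, 5.27 and 5.73 against 5.77 to 6.56. Of 15 cholangiocyte and progenitor genes, 3 rose (Spp1, Cd24a and Krt23), and 1 of them passed without B6 NC 1. None of 19 endothelial, 6 T cell or 4 dendritic cell genes passed. With 2.7% rising and 1.07% falling over all genes, lists this small would hold few calls or none. Of 5 plasma and B cell genes, Jchain, the joining chain of IgA and IgM, rose by 1.07 ± 0.17, from 5.10, 5.33 and 5.55 to 6.66, 6.53 and 6.80 in MupHe, 7.40, 6.52 and 6.52 in IgAkMup, and 5.61, 5.69 and 5.83 in CD8kMup.

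**Figure D4:**
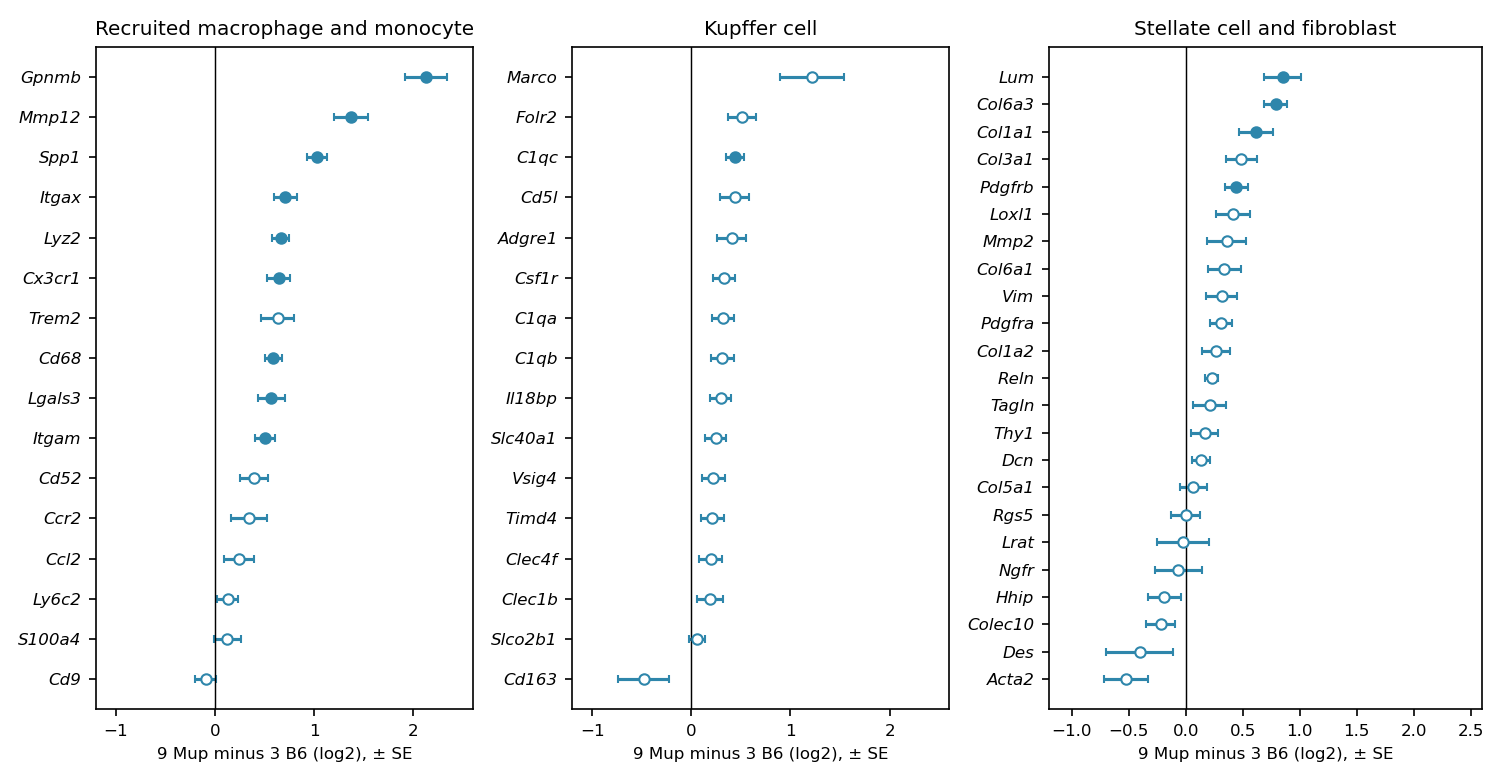
Difference between 9 Mup and 3 B6 libraries (log2, horizontal axes; points with ± SE of the limma fit) for the tested markers of recruited macrophages, Kupffer cells and stellate cells. Filled points passed at an adjusted p below 0.05: 9 of 16, 1 of 16 and 4 of 23, with Gpnmb at 2.13 the farthest right.

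Acute phase and interferon genes were partly higher. Of 30 acute phase genes 6 rose and 1 fell, with a median of 0.25. Orm2, an orosomucoid, read 7.27, 7.56 and 7.46 in B6 and 8.07 to 8.69 in Mup, a difference of 0.89 ± 0.10, and its neighbour Orm3 had 1.03 ± 0.17. Reads of these near-identical copies could be split between them. The iron-binding lipocalin Lcn2 rose by 1.19 ± 0.20. Of 30 type I interferon genes 4 rose and none fell, with a median of 0.28. Ifi27l2b (chr12:103450898-103457223) led them, with 5.16, 5.49 and 5.52 in B6 and 6.82 to 7.73 (median 7.53) in Mup, a difference of 2.05 ± 0.17 (adjusted p = 2.96e-05). Apol9a (1.09 ± 0.19), Oas1a (0.69 ± 0.16) and Oasl1 (0.70 ± 0.17) were the others, and without B6 NC 1 Ifi27l2b was the 1 member that passed.

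Growth genes rose in part. Ccnd1, which encodes cyclin D1, the driver of entry into the cell cycle, read 8.02, 8.15 and 7.52 in B6 and 8.72 to 10.03 (median 9.31) in Mup, a difference of 1.44 ± 0.16 (adjusted p = 0.000371). The groups did not overlap, and the rise was 1.09 in MupHe, 1.37 in IgAkMup and 1.87 in CD8kMup. Of 19 cell division genes 3 rose, the others being Top2a (0.69 ± 0.15) and Mki67 (0.81 ± 0.19), and the list's mean level was 4.80 to 4.93 in B6 and 4.95 to 5.75 in Mup. Neither Top2a nor Mki67 passed without B6 NC 1 (adjusted p = 0.104 and 0.0837). Mki67 overlapped, at 4.84 to 5.33 in B6 and 5.23 to 6.90 in Mup. Against B6, 1 of the 19 rose in MupHe (median 0.10), 2 in IgAkMup (0.32) and 3 in CD8kMup (0.55), where 1.19%, 2.3% and 1.18% of all genes rose. Top2a and Mki67 did not pass in MupHe, and their differences among the genotypes did not pass either (F test, adjusted p = 0.391 and 0.280). Among tumour-associated genes 5 of 17 rose and 1 fell, and of the 5, Lcn2 and Cd24a are also counted in other lists above. Golm1, a Golgi membrane protein used as a serum marker of liver cancer, rose by 0.86 ± 0.12, with 5.76, 5.45 and 5.72 in B6 and 6.25 to 6.83 in Mup. It kept its call with any 1 library left out.

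Few genes of the metabolic lists passed in the pooled contrast. None of 23 cholesterol synthesis, 17 fatty acid synthesis, 25 fatty acid oxidation, 25 urea cycle or 19 bile acid genes passed there. Over all genes 2.7% rose and 1.07% fell in that contrast, so a list of this size would hold few calls or none. By genotype, 4 of the 25 fatty acid oxidation genes fell in MupHe (list median -0.30), 1 rose in IgAkMup (0.15) and none passed in CD8kMup (-0.13). Of the bile acid genes 2 fell in MupHe, 2 rose and 1 fell in IgAkMup, and none passed in CD8kMup. In other lists single genes passed in the pooled contrast: Cd36, the fatty acid transporter, rose by 0.98 ± 0.17, Apoa4, an apolipoprotein, by 1.39 ± 0.26, and hepatic lipase (Lipc) fell by 0.31 ± 0.06. Of 18 pericentral genes 3 rose, led by the ammonium transporter Rhbg, with 5.79, 5.86 and 5.76 in B6 and 6.91 to 7.55 in Mup (1.32 ± 0.09, adjusted p = 1.35e-05). Glul, glutamine synthetase of the same hepatocytes, rose by 0.43 ± 0.09. None of 17 periportal genes passed. Female-biased liver genes rose in 5 of 21, with a median of 0.34, including Abcd2, a peroxisomal transporter (1.26 ± 0.22), and Rtn4, reticulon 4 (0.71 ± 0.12). Without the 3 muscle-high libraries none of these 5 passed. Set against B6 by genotype, 5 of the 21 rose in IgAkMup (median 0.56), 2 in CD8kMup (0.29) and none in MupHe (0.09), where 1 fell. The shares of all genes that rose were 2.3% in IgAkMup, 1.18% in CD8kMup and 1.19% in MupHe. The list's counts were not tested against each other.

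The major urinary protein genes, whose promoter gives the transgene its name, did not move as a block. Of 17 tested, 3 fell (Mup3 by 0.62 ± 0.12, Mup21 by 0.81 ± 0.17 and Mup12 by 1.20 ± 0.29 on the log2 scale) and none rose in the pooled contrast, while the median of the list was 0.15. By genotype, the median was 1.07 in MupHe, with 3 rises, -0.40 in IgAkMup, with 3 falls, and -0.90 in CD8kMup, with 3 falls. The mean level of the list was 10.7 to 10.9 in MupHe and 9.10 to 10.48 in B6. Mup9 showed the widest contrast, with 4.83, 7.14 and 6.34 in B6 and 9.65, 10.52 and 9.96 in MupHe. No urinary protein gene passed the F test among genotypes. These genes are close copies, so reads could be shared among them, and their 3 falls were lost without B6 NC 1.

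In the contrast of MupHe with B6, 146 genes rose (1.19%) and 40 fell (0.326%). Moxd1, a monooxygenase-like gene with male-biased expression in liver, rose by 5.05, from 2.05, 2.65 and 2.42 in B6 to 7.88, 6.67 and 7.73. A single CD8kMup library (6.69) was as high, and the other Mup libraries were between 1.97 and 4.80. The difference of Moxd1 among the genotypes did not pass (F test, adjusted p = 0.16). The fatty acid omega-hydroxylase genes Cyp4a14 and Cyp4a10, targets of PPAR alpha, were lower by 2.69 and 1.99 in MupHe, at 7.46, 8.43 and 8.38 for Cyp4a14 against 10.53, 9.999 and 11.81 in B6. Their differences among the genotypes did not pass (adjusted p = 0.103 and 0.136). In IgAkMup 282 rose (2.3%) and 131 fell (1.07%), and in CD8kMup 145 rose (1.18%) and 41 fell (0.334%). Serpina12, which encodes the adipokine vaspin, was lower by 2.00 in IgAkMup, at 7.12, 5.78 and 5.11 against 7.19, 8.54 and 8.29, and did not pass among genotypes (adjusted p = 0.136).

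Tested directly, 9 genes (0.0733%) differed among the 3 Mup genotypes. The first was Serpina3c (chr12:104146382-104153870), one of a cluster of serine protease inhibitors. It read 9.58, 9.08 and 9.85 in IgAkMup and between 2.84 and 4.20 in the other 9 libraries, B6 included (F test, adjusted p = 3.78e-08). Its pooled difference of 1.67 therefore comes from 1 genotype and was -0.32 with that group left out. Serpina3m, in the same cluster, read 12.99, 12.61 and 13.31 in IgAkMup and 10.64 to 11.62 in the others (adjusted p = 0.00849). Within 1 Mb of Serpina3c 28 genes were tested, of which 5 passed in the pooled contrast and 2 in the F test. Igha, the gene named in this genotype, lies 9.10 Mb away on the same chromosome (chr12:113254830-113260236). What part linked sequence has in these levels was not tested.

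Nnt (chr13:119335448-119408997), the mitochondrial transhydrogenase that C57BL/6J mice lack in working form, fell in steps. It read 10.06, 10.02 and 10.09 in B6, 9.41, 9.44 and 9.38 in MupHe, 8.83, 8.84 and 8.84 in IgAkMup, and 8.56, 8.93 and 8.73 in CD8kMup. The pooled difference was -1.06 ± 0.07 (adjusted p = 4.5e-06), and the genotypes differed (F test, adjusted p = 0.0106), with no library of MupHe near those of B6 or of the other 2 Mup groups. None of the other 7 genes tested within 1 Mb passed. Wdfy1 (chr1:79702262-79776143), another gene known to differ between C57BL/6 substrains, read 7.95, 7.94 and 7.87 in B6, 7.37, 7.31 and 7.23 in MupHe, 7.48, 6.21 and 7.40 in IgAkMup, and 6.50, 6.43 and 6.30 in CD8kMup, a pooled difference of -1.003 ± 0.20 (adjusted p = 0.0153). Its difference among the genotypes did not pass (F test, adjusted p = 0.287), and its pooled call was lost in 2 of 12 fits that leave out a library (adjusted p = 0.0646 without B6 NC 1). Of the 4 substrain genes tested, Ide and Cyfip2 did not pass, at 0.06 ± 0.07 and 0.14 ± 0.13. Wdfy1 lies beside Serpine2, and of the 5 genes tested within 1 Mb these are the 2 that passed. What part a difference in strain background has in the other results was not tested. Neat1, a nuclear long noncoding RNA, was at 10.11, 9.97 and 10.23 in B6 and alike in MupHe (10.02, 10.04 and 9.89), but lower in IgAkMup (9.16, 9.50 and 9.42) and CD8kMup (9.13, 9.15 and 8.86). Tymp, thymidine phosphorylase, had a similar order, with means of 9.87, 9.51, 8.73 and 8.81 in B6, MupHe, IgAkMup and CD8kMup, though its F test missed the threshold (adjusted p = 0.063).

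The falls were unevenly placed in the genome, a pattern looked for after the values were seen. Chromosome 14 held 31 of the 131 genes that fell and 4 of the 331 that rose, among 401 genes tested there. That is 7.73% falling, against 0% to 1.55% on each of the other 19 chromosomes tested and 1.07% over all genes. For 25 of the 31 the groups did not overlap, and the falls ran from -0.25 to -0.71. The shift was broad: 79.6% of the chromosome's genes had a negative difference, against 43.8% to 55.7% elsewhere, with a median of -0.17. It was of like size along the chromosome, with medians of -0.13 for genes from 0 to 30 Mb, -0.18 from 30 to 60 Mb, -0.21 from 60 to 90 Mb and -0.19 beyond 90 Mb. All 3 genotypes showed it, with medians of -0.17 in MupHe, -0.20 in IgAkMup and -0.14 in CD8kMup.

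Examples among the 31, chosen after their values were seen, are metabolic enzymes and regulators. Ephx2 (chr14:66084374-66124500), soluble epoxide hydrolase, read 12.45, 12.64 and 12.76 in B6 and 12.00 to 12.27 in Mup (-0.45 ± 0.07). Sucla2, a subunit of succinyl-CoA ligase, read 10.45, 10.48 and 10.39 against 9.73 to 10.16 (-0.48 ± 0.09). Zfhx2, a zinc finger homeobox gene, read 7.57, 7.35 and 7.57 against 6.66 to 7.13 (-0.65 ± 0.08). Bmp1, a procollagen protease, and Psmc6, the 1 of 26 proteasome genes that fell, lie there too, with differences of -0.60 and -0.27. The 4 that rose were Scara3 (0.94 ± 0.11), Fam124a (0.46 ± 0.08), Lgals3 and Pcdh17. Plau itself lies on this chromosome.

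To see the shift library by library, each gene was set to its mean over the 12 libraries, and the median over the chromosome's genes was taken in each library, less the median of all autosomal genes. For chromosome 14 this value was 0.118 to 0.133 in B6 and -0.165 to 0.058 in Mup, so the groups did not overlap and Mup varied far more. The difference was -0.165 (exact two-sided permutation p = 0.00909, adjusted over 20 chromosomes 0.0606; the smallest possible raw p is 0.00455), and on the other chromosomes it lay between -0.0136 and 0.0275. Chromosomes 1 and 6 had the same adjusted p with differences of 0.0261 and 0.0275. With each library left out in turn it stayed between -0.177 and -0.150. The same was computed in libraries used above only in the fit of all mapped libraries. They were 6 steatohepatitis livers of the Mup groups (MupHe and IgAkMup NASH) and 6 livers without Mup in their names (B6 and IgAkCLM HFD controls). Between these sets stage and genotype cannot be told apart. There the value was -0.175 to 0.113 in Mup and 0.140 to 0.173 in the controls, a difference of -0.163 (exact two-sided permutation p = 0.00216, the smallest possible, adjusted over 20 chromosomes 0.0433), and the other chromosomes lay between -0.0122 and 0.0399. Chromosomes 1 and 12 reached the same adjusted p there with differences of 0.0215 and 0.0314. What lowers these genes was not tested.

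**Figure D5:**
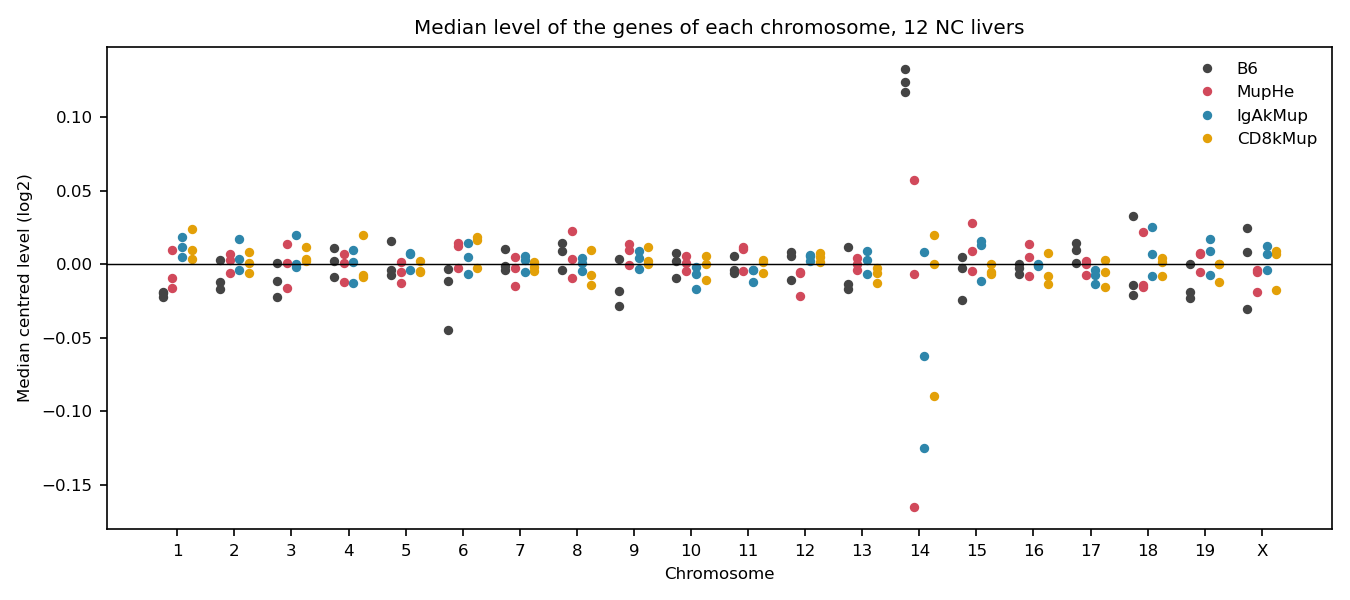
Median level of the genes of each chromosome (vertical axis, log2, centred per gene and per library) in the 12 libraries (points, coloured by group) for chromosomes 1 to 19 and X (horizontal axis). On chromosome 14 the 3 B6 libraries lie at 0.118 to 0.133 and the 9 Mup libraries at or below 0.058, while all other points lie within 0.05 of 0.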

How the data were processed

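Gene expression was measured by RNA-seq (TruSeq Stranded mRNA libraries, per the labels' protocols) in the 12 NC livers. RNA came from AllPrep columns or, for some livers that the labels do not list, from Trizol and RNeasy columns. The authors deposited 1 table of rlog2 values, on a log2 scale, of 24511 genes in 41 libraries. Per the submitters' processing notes, the tools the authors used on the NC libraries were STAR, HOMER and DESeq2, and the genome build was mm10; the notes used here state no version and no role. No counts were used, so the depth is unknown and no counting interval is given. Column names were compared with the labels, and 6 columns of other groups matched more than 1 and were not used.

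A gene entered the tests if its NC libraries averaged 3 or more, which left 12279. Mitochondrially encoded genes were not analysed here, and 1 gene that the rule below names is not reported here. A limma fit (limma 3.58.1, R 4.3.3, eBayes with trend) gave the pooled contrast, 3 genotype contrasts and an F test among the Mup groups, with Benjamini-Hochberg adjustment over all kept genes and a threshold of 0.05. The fit was tested on simulated data. Single values were compared by exact permutation of libraries. Gene positions were taken from GENCODE on GRCm38, which is mm10. Named genes are those of the genotype names, the 15 largest rises and falls of the pooled contrast, the 5 of each genotype contrast, the 10 of smallest p in the F test and up to 4 of smallest p from each of 54 lists. Members, lists and tests were chosen with earlier results of these data known, and the chromosome comparison and the settings without muscle-high or clock-shifted libraries were added after seeing the data. The alternatives were other filters, normalizations, weights and libraries.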

Additional observations from a re-analysis of the deposited data

Results flagged for a closer look

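A moderated F test found differences among the 3 Mup genotypes for 9 genes, with p-values adjusted over all genes by limma: Serpina3c (3.78e-08), Serpina3m (0.00849), Neat1 (0.0106), Nnt (0.0106), Derl3 (0.0268), Rpl34-ps1 (0.0398), Hist1h1c (0.0455), Rpl34 (0.047) and Srp68 (0.047). At an unadjusted p below 0.05, 1180 genes passed. Serpina3c and Serpina3m were higher in IgAkMup than in the other 2 groups. Derl3 was highest in CD8kMup. The ribosomal protein gene Rpl34 read 6.97, 7.24 and 7.46 in IgAkMup and 7.84 to 8.04 in the other Mup libraries, and its processed copy Rpl34-ps1 had nearly the same values, and reads of the pair could be split either way. The linker histone gene Hist1h1c read 6.42, 6.11 and 6.33 in CD8kMup and 6.72 to 7.03 in the other Mup libraries. Srp68, a subunit of the signal recognition particle, read 8.99, 9.06 and 9.09 in MupHe and 8.52 to 8.69 in the others.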

How the results depend on the processing

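The values have no counts behind them, groups hold 3 libraries, and 2 of the 3 B6 libraries stand apart, so counts of genes are not secure. A large change without overlap did not make a call secure either. G0s2 and Egr1 had such changes and lost their calls in 10 and 9 of 12 fits that leave out a library. Of 83 named genes that passed, 41 passed in all 12 fits that leave out a library. Leaving out 1 library gave 204 to 477 genes in the pooled contrast (204 without B6 NC 1, 289 without CD8kMup NC 2, 293 without IgAkMup NC 2), 51 to 372 in MupHe, 108 to 423 in IgAkMup, 72 to 199 in CD8kMup and 2 to 69 in the F test (69 without CD8kMup NC 1, 22 without B6 NC 3). MupHe fell to 51 without MupHe NC 3 and reached 372 without B6 NC 3. It was 67 and 113 without MupHe NC 1 and 2, and 82 and 122 without B6 NC 1 and 2. IgAkMup fell to 108, 205, 248 and 273 without IgAkMup NC 2, IgAkMup NC 1, B6 NC 1 and CD8kMup NC 2, and CD8kMup to 72, 90 and 100 without CD8kMup NC 2, CD8kMup NC 3 and B6 NC 1. The F test gave 2 without MupHe NC 1, 2 or 3, 4 without CD8kMup NC 2 or CD8kMup NC 3 and 5 without IgAkMup NC 2. A fit of all 35 mapped libraries, whose median residual SD was 0.205 against 0.149, gave 29 pooled calls (26 shared), 12 in MupHe, 18 in IgAkMup, 9 in CD8kMup and 4 in the F test, and kept 9 of the 83 named genes, among them Gldn, Cib3, Atf3, Ifi27l2b, Serpina3c, Serpine2, Nnt and Cd36.

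Without a filter on the mean, which adds genes near the floor, 253 genes passed in the pooled contrast, 73 in MupHe, 197 in IgAkMup and 66 in CD8kMup, and the chromosome 14 difference moved to -0.051. Array weights gave 285 pooled calls and 65 in the F test, and robust moderation 16 in the F test. Fits of B6 with 1 genotype gave 91 in MupHe, 117 in IgAkMup and 62 in CD8kMup. Pooled without IgAkMup, 183 passed and Serpina3c reversed to -0.32, and without CD8kMup 280 passed. Leaving out the 3 muscle-high libraries gave 87 pooled, 29 in MupHe, 143 in IgAkMup and 28 in CD8kMup, and leaving out B6 NC 1 and 3 gave 123 pooled, 117 in IgAkMup and 95 in CD8kMup. For these changes the cause was not tested. Libraries are numbered here as in their titles, and some column names carry other numbers. Same-numbered libraries of different groups had correlated deviations (r over 0.1) in 7 of 18 pairs, and 6 of 12 libraries correlated best with one of their own number. Yet the highest r, 0.294, joined libraries of different number, B6 NC 1 and CD8kMup NC 3. With so few libraries this does not settle whether the numbers pair them. A replicate block gave 384 pooled calls and 113 in MupHe.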

Other observations

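With gene means taken over all 35 mapped libraries, so that NC and high-fat diet samples share 1 scale, the chromosome 14 median was 0.168 to 0.172 in the 3 B6 NC libraries, 0.111 to 0.130 in the 3 B6 HFD controls and 0.136 to 0.139 in the 3 IgAkCLM HFD controls. It was -0.133 to 0.092 in MupHe NC, -0.063 to 0.051 in IgAkMup NC and -0.049 to 0.061 in CD8kMup NC. Tumours, used above only in the fit of all mapped libraries, spread from -0.274 to 0.416 in MupHe HCC (n = 4), from -0.325 to -0.009 in IgAkMup HCC (n = 4) and from -0.129 to 0.074 in CD8kMup HCC (n = 3).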
